A study of Mus musculus with 18 samples.

Results

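The 40 genes described here are the cell cycle and DNA replication genes of a fixed list, 25 that act in and before S phase and 15 that act in mitosis. Their transcripts were found by gene name and summed per gene, and all 40 were among the 13381 genes that passed the filter on low counts, of 24585 with any count. They were followed in 18 RNA-seq libraries of splenic conventional dendritic cells (cDC) from C57BL/6 mice, in 6 groups of 3 libraries. The groups were wild type (WT) or ADAM10 knockout (KO), each sorted as CD4+ (cDC2), CD8-CD4- (cDC2, called CD4- below) and CD8+ (cDC1). All cells were enriched for CD11c and sorted as live, CD11c+ and MHCII+. ADAM10 is a membrane protease that sheds receptors and ligands and activates Notch. The cell type and allele with which ADAM10 was removed, the age and sex of the animals, and whether a library came from 1 animal or from a pool are not given in the sources used here. The p-values therefore measure the spread between libraries of a group, which may be partly technical.

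Splenic cDC are short lived and are replaced from circulating precursors and, in part, by division in the spleen. In G1 phase, cyclin D and cyclin E kinases release E2F factors from the RB proteins, and E2F then drives the genes that load and fire replication origins and supply nucleotides. The mitotic genes come on later, in G2, largely through the MuvB complex with B-MYB and FOXM1, which reaches promoters at the CHR element. In bulk RNA from sorted cells, fewer cycling cells and less of these RNAs per cell cannot be told apart.

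Levels are given as CPM (counts scaled to a common library size), and differences as log2 fold changes from edgeR's quasi-likelihood test with their standard errors. A gene is said to have risen or fallen where its Benjamini-Hochberg adjusted p over all 13381 genes was under 0.05. The libraries held 12342015 to 19533254 estimated counts each. Adam10 was at 80.6 to 138 CPM in the 6 WT cDC2 libraries and at 41.6 to 47.5 in the KO ones, and at 57.0 to 99.0 against 28.7 to 36.4 in CD8+ cDC. It fell by 1.18 ± 0.22 (log2, SE, adjusted p = 5e-04) in CD4+, by 1.25 ± 0.22 (adjusted p = 0.000552) in CD4- and by 1.15 ± 0.23 (adjusted p = 0.00187) in CD8+ cDC, so reads of the gene remained in every KO group. The sort markers followed the labels: mean Cd4 was 443 (WT) and 433 CPM (KO) in CD4+ cDC and 4.00 to 6.40 in the other 4 groups, and mean Cd8a was 1060 and 588 in CD8+ cDC and 1.78 to 5.90 elsewhere. KO cDC2 also held more RNA of monocyte markers than WT cDC2, and KO CD4- cDC less RNA of T and NK cell markers.

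Promoter sequences are shown for 7 members because S-phase and mitotic members differed in the letters near their starts, a feature that the choice of genes did not use. RefSeq (GRCm38.p6) start sites gave windows of 250 bases before to 50 after the start for 34 of the 40 members, 22 S-phase and 12 mitotic. The letters searched on both strands were an E2F set (TTTCGCGC, TTTGGCGC, TTTCCCGC or TTTGCCGC), the CHR core TTTGAA, and CCAAT. E2F letters stood in 10 of 22 S-phase and 1 of 12 mitotic members, against 2.6% of all genes with a window, counting a match in any window of a gene. CHR letters stood in 4 of 22 S-phase and 9 of 12 mitotic members, against 20.23% of all genes. CCAAT stood in 13 of 22 and 11 of 12, against 41.06%. In a second list of cell cycle genes that are no members, E2F letters stood in 9 of 29 replication and 3 of 40 mitotic genes. CHR letters stood in 6 of 29 and 27 of 40. CCAAT stood in 18 of 29 and 25 of 40 (62.1% and 62.5%), so the second list did not share the members' difference in CCAAT. A match is a description of letters and does not show that a factor binds.

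The printed bases lie before the RefSeq start, leave out any bases inside the gene as the mouse annotation has it, run 5′ to 3′ on the gene's strand, and carry the E2F and CHR matches in capitals. The first 3 are S-phase genes with E2F letters: Mcm5 (chr8:75109259-75109508, + strand), Mcm6 (chr1:128359706-128359955, - strand) and Pola1 (chrX:93632156-93632405, - strand). In Mcm5 and in the first match of Mcm6, matches on opposite strands overlap by 4 bases. Cdk1 (chr10:69352939-69353162, - strand) was the mitotic member with both kinds. Ccnb2 (chr9:70421555-70421804, - strand), Top2a (chr11:99024190-99024439, - strand) and Cdc20 (chr4:118437353-118437593, - strand) are mitotic genes with CHR letters.
Mcm5: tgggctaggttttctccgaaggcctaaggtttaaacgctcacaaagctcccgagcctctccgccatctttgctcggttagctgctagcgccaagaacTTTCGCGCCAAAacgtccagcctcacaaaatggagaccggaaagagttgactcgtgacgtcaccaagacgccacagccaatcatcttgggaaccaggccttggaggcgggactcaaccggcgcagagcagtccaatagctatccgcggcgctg
Mcm6: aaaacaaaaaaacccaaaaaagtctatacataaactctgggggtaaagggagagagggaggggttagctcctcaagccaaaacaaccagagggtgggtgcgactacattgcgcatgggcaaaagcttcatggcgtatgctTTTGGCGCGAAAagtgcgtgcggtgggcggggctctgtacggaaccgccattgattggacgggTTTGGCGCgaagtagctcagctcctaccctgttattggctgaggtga
Pola1: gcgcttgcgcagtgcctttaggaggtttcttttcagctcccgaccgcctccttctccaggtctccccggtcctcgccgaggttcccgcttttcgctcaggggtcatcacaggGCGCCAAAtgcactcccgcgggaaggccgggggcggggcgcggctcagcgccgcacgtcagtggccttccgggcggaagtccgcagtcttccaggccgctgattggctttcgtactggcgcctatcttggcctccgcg
Cdk1: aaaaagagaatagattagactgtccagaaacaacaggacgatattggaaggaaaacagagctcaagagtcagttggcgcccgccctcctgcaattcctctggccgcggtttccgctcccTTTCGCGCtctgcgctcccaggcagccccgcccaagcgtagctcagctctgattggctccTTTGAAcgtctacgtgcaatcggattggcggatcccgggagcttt
Ccnb2: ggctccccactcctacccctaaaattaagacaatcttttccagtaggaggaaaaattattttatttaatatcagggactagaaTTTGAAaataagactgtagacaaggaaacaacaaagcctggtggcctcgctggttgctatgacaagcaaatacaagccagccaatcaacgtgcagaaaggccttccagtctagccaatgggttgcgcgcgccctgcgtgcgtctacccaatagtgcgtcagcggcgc
Top2a: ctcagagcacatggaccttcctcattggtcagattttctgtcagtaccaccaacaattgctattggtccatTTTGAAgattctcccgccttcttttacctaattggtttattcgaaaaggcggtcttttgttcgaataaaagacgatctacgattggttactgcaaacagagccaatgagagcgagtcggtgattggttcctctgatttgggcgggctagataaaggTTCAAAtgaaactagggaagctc
Cdc20: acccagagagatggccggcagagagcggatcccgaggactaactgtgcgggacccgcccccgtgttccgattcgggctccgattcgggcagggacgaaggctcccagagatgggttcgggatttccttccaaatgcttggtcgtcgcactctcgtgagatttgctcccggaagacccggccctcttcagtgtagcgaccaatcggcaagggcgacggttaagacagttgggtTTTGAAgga

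Among the 22 S-phase members with a window, the 10 with E2F letters had a median log2 difference between KO and WT CD4+ cDC of -0.90, and the 12 without them -0.94. These medians were -0.59 and -0.49 in CD4- cDC, and 0.20 and 0.24 in CD8+ cDC. The median changes of S-phase members with and without these letters were thus of similar size, and their difference was not tested.

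In ADAM10 knockout CD4+ cDC, RNA of nearly the whole replication and division programme was lower than in WT CD4+ cDC. Of the 25 S-phase members 24 fell and of the 15 mitotic members 14 fell, where 16.6% of all genes tested were called lower and 18.5% higher. The median log2 difference was -0.93 for the S-phase and -1.10 for the mitotic members, against 0.02 over all genes, and 11 S-phase and 9 mitotic members fell by at least 2-fold. In CD4- cDC 18 S-phase and 9 mitotic members fell (11.3% of all genes were called lower and 14.6% higher), with medians of -0.59 and -0.66. In CD8+ cDC no member fell, and 2 S-phase and 6 mitotic members rose (7.01% of all genes were called higher and 8.68% lower), with medians of 0.22 and 0.55. The share of S-phase members that rose there, 8%, was near that of all genes, and the share of mitotic members was 40%. The counts of 0 were the same with DESeq2, and no member was lower in CD8+ or higher in CD4+ or CD4- cDC at an unadjusted p under 0.05 in edgeR's test.

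The summed level of the 25 S-phase members was 1643, 1824 and 1973 CPM in the WT and 1093, 935 and 911 in the KO libraries of CD4+ cDC, so the KO mean was 54.0% of the WT mean. It was 1405, 1638 and 1568 against 1116, 1006 and 1029 CPM in CD4- cDC (68.3%), and 1542, 1618 and 1561 against 1756, 1598 and 1866 in CD8+ cDC (111%). The KO libraries lay below the WT libraries in both cDC2 populations and overlapped with them in CD8+ cDC. For the 15 mitotic members the sums were 352, 412 and 504 CPM in WT against 275, 182 and 195 in KO CD4+ cDC (51.5%). In CD4- cDC they were 300, 384 and 392 against 268, 182 and 237 CPM (63.9%). In CD8+ cDC they were 312, 343 and 359 against 574, 395 and 505 CPM (145%), and here the KO libraries were all above the WT libraries. On the TPM scale, which also divides by transcript length, the KO sum was 97.4% of WT for the S-phase and 129% for the mitotic members in CD8+ cDC. These TPM sums are not scaled between libraries as the CPM are. The small S-phase difference in CD8+ cDC was on the other side in them, and the falls in cDC2 were not (46.7% and 49.7% of WT in CD4+, 54.8% and 55.2% in CD4- cDC). In log2(TPM + 1) with TMM scaling between libraries, the median S-phase difference in CD8+ cDC was 0.22, with 22 of 25 members above 0, and without that scaling it was 0.02, where the median of all genes was -0.12.

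**Figure D1:**
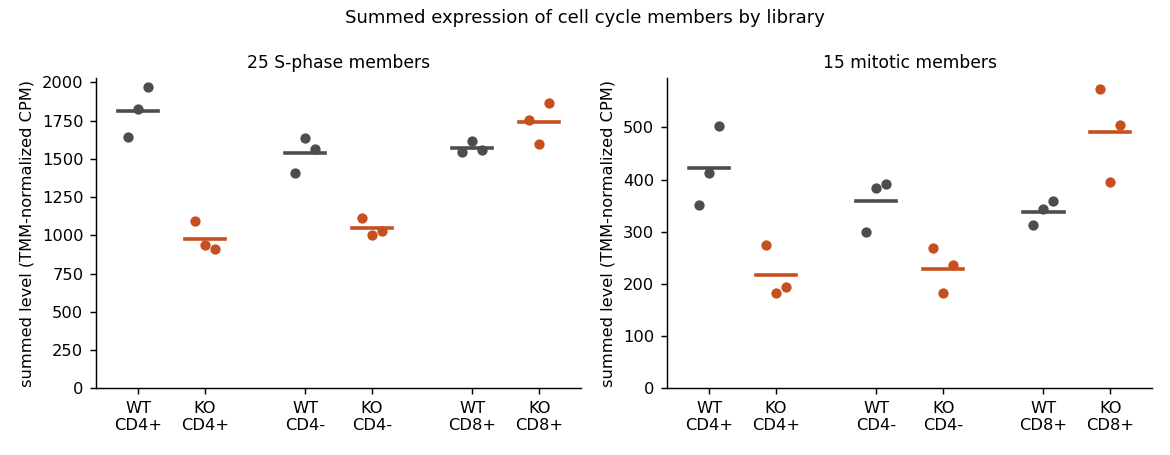
Summed level of the 25 S-phase members and of the 15 mitotic members in CPM for each library (dots), with the mean of each group of 3 (line), by population and genotype. The 3 KO libraries lie below the 3 WT libraries for both sets in CD4+ and CD4- cDC, and above them for the mitotic set in CD8+ cDC.

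RNA of genes listed as markers of other cell types moved with the genotype in the same libraries. The summed level of 11 monocyte markers was 5044, 3893 and 4026 CPM in WT and 13190, 15210 and 17360 in KO CD4+ cDC, with 9 of the 11 higher, and 3933, 3785 and 3682 against 9212, 12230 and 12600 in CD4- cDC, with 7 higher. In CD8+ cDC the sum was 1288, 981 and 1221 against 1794, 2449 and 2262 CPM, with 2 higher and 3 lower. For these and the next counts, 18.5% of all genes were called higher and 16.6% lower in CD4+ cDC. These shares were 14.6% and 11.3% in CD4- cDC and 7.01% and 8.68% in CD8+ cDC. The 12 red pulp macrophage markers summed to 637 to 725 CPM in WT and 1356 to 1589 in KO CD4+ cDC, with 9 higher and Spic, a factor that defines these cells, lower. In CD4- cDC the 11 NK cell markers went from 1049, 516 and 501 CPM to 258, 154 and 187 (9 lower), and the 12 T cell markers from 409, 204 and 285 to 59.0, 19.6 and 70.0 (12 lower). In CD4+ cDC the T cell markers were at 26.2 to 28.8 CPM in WT and 19.9 to 35.3 in KO. Of the 12, 3 were called higher and 1 lower, and 11 were above 0 and 1 below (median log2 1.43). The 11 NK cell markers there summed to 31.0 to 33.6 CPM in WT and 53.7 to 79.1 in KO. Erythroid markers summed to 114, 91.6 and 102 CPM in WT and 290, 175 and 328 in KO CD8+ cDC. They summed to 276, 90.9 and 203 CPM in KO CD4+ and to 129.8, 61.7 and 249 in KO CD4- cDC. The second library was the lowest of each KO group for these markers and for the summed mitotic members. In each WT group the second library was also the lowest for the erythroid markers, and the first for the mitotic members. Hba-a1, Hba-a2, Hbb-bs and Slc4a1 rose in KO CD8+ and KO CD4+ cDC. Of the genes that define dividing erythroid precursors, Klf1, Epor and Gata1 had at most 9, 4 and 3 estimated counts in any library. These were filtered out. In CD8+ cDC, 7 genes that mark cDC2 summed to 248, 194 and 286 CPM in WT and 50.6, 47.1 and 86.8 in KO (25.3% of WT), with 5 of the 7 lower. The 9 plasmacytoid cell markers went there from 402.5, 319 and 434 to 268, 222 and 278 CPM, with 3 lower and 1 higher. In cDC2 their sums went the other way. They were 229.5 to 275.8 CPM in WT and 304.6 to 399.8 in KO CD4+ cDC. In CD4- cDC they were 209.9 to 296.3 CPM in WT and 358.5 to 450.5 in KO. The T cell markers were at 38.4, 59.2 and 20.5 against 12.45, 7.25 and 21.05 CPM in CD8+ cDC (3 of 12 lower), and the NK cell markers at 138, 169 and 92.7 against 120.2, 81.6 and 108 (5 of 11 lower). The 10 B cell markers summed to 323 to 342 CPM in WT and 334 to 343 in KO CD8+ cDC, with 4 lower and 0 higher. The CD8+ sort thus held less RNA of cDC2 and plasmacytoid cell genes in the KO libraries, while the T, NK and B cell sums overlapped. Of 9 neutrophil markers 8 were filtered out. Whether the marker RNA came from other cells or from the cDC themselves was not tested. Nor was the part of any other cells in the members' values.

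The 6 MCM genes encode the helicase that is loaded on origins and opens the DNA, and all 6 fell in KO CD4+ cDC, with log2 differences from -1.14 to -0.84. Mcm2 was at 109, 109 and 132 CPM in the WT and 61.9, 50.3 and 45.8 in the KO libraries, a fall of 2.21-fold (log2 -1.14 ± 0.12, adjusted p = 1.07e-06). Mcm5 was at 144, 157 and 168 CPM in WT and 88.4, 72.3 and 63.99 in KO (log2 -1.06 ± 0.10, adjusted p = 5.16e-07). For both genes every KO library lay below every WT library. In CD4- cDC all 6 fell again, by less, from -0.73 to -0.50: Mcm2 went from 92.6, 112 and 108 to 68.6, 60.6 and 58.2 CPM (log2 -0.73 ± 0.12, adjusted p = 0.000219). Mcm5 was at 129.8, 147 and 138 CPM in WT and 102, 91.8 and 94.5 in KO CD4- cDC (log2 -0.52 ± 0.10, adjusted p = 0.00109). In CD8+ cDC none of the 6 was called, and the genotypes overlapped: Mcm2 was at 115, 140.3 and 119 CPM in WT and 117, 107 and 118 in KO and Mcm5 at 162, 164 and 151 CPM in WT and 163, 151 and 174 in KO. Most of the Mcm2 TPM (72.7%) was assigned to a transcript annotated for nonsense-mediated decay, so its gene sum is not a measure of coding RNA alone.

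Cdc6 and Cdt1, which load the helicase, and Cdc45 and Gins2, which belong to its active form, all fell in KO CD4+ cDC. Cdc6 was at 8.58, 13.8 and 14.9 CPM in WT and 6.14, 6.21 and 5.303 in KO CD4+ cDC (log2 -1.08 ± 0.20, adjusted p = 5e-04). Cdt1 was at 26.2, 31.6 and 28.2 CPM in WT and 18.96, 18.9 and 14.3 in KO (log2 -0.72 ± 0.15, adjusted p = 0.00144). Cdc45 fell the most of the 4 (-1.40 ± 0.20, adjusted p = 2.83e-05) and Gins2 the least (-0.45 ± 0.12, adjusted p = 0.00696). In CD4- cDC, Cdc6 went from 8.096, 13.2 and 9.58 to 7.12, 5.75 and 7.13 CPM (-0.62 ± 0.20, adjusted p = 0.0347), and Cdc45 also fell. Cdt1, at 23.4, 28 and 25.3 CPM in WT and 23.4, 17.2 and 23.1 in KO CD4- cDC, missed the threshold (-0.27 ± 0.15, adjusted p = 0.232), as did Gins2 (-0.22 ± 0.12, adjusted p = 0.196). In CD8+ cDC none of the 4 was called: Cdc6 was at 13.2, 15.3 and 12.3 CPM in WT and 17.9, 15.9 and 20.1 in KO (0.40 ± 0.19, adjusted p = 0.19). Cdt1 was at 23.4, 32.6 and 26.6 CPM in WT and 37.9, 32.3 and 29.2 in KO (0.27 ± 0.15, adjusted p = 0.28).

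The genes of nucleotide supply fell together in both cDC2 populations, 5 of 5 in each, and included the S-phase members with the largest falls. Rrm2, the regulated subunit of ribonucleotide reductase, was at 55.1, 67.9 and 72.2 CPM in WT and 27.2, 14.7 and 19.1 in KO CD4+ cDC, 3.20-fold lower (log2 -1.68 ± 0.24, adjusted p = 3.54e-05). Tyms, which makes dTMP, was at 22.5, 28.8 and 26.7 CPM in WT and 14.98, 10.7 and 10.03 in KO (-1.13 ± 0.16, adjusted p = 3.37e-05). Dut, which removes dUTP, fell by 1.44 ± 0.13 (adjusted p = 3.03e-07) in CD4+ and, with the largest fall of the S-phase set there, by 1.12 ± 0.13 (adjusted p = 1.42e-05) in CD4- cDC. In CD4- cDC Rrm2 went from 35.7, 50.6 and 44.5 to 27.1, 13.8 and 21.3 CPM (-1.06 ± 0.24, adjusted p = 0.00337). Tyms went from 16.6, 17.5 and 14.1 to 13.5, 9.21 and 11.6 CPM there (-0.49 ± 0.16, adjusted p = 0.036). In CD8+ cDC the direction of Rrm2 was the other one, 29.3, 33.2 and 40.9 CPM in WT and 50.3, 39.7 and 56.5 in KO, with overlap between the genotypes and no call (0.51 ± 0.23, adjusted p = 0.172). Tyms was at 22.3, 24.3 and 22.3 CPM in WT and 27.1, 22.3 and 25.98 in KO in CD8+ cDC (0.13 ± 0.16, adjusted p = 0.656). Tk1, the thymidine salvage kinase, rose in KO CD8+ cDC, from 22.4, 24.98 and 26.4 to 39.2, 33.3 and 38.5 CPM (0.59 ± 0.14, adjusted p = 0.00933), with all 3 KO libraries above all 3 WT libraries.

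At the replication fork, Pcna, Lig1, Fen1 and Pola1 fell in KO CD4+ cDC, and the same genes other than Fen1 fell in CD4- cDC. Pcna, the sliding clamp, was at 263, 276 and 282 CPM in WT and 162, 178 and 159.8 in KO CD4+ cDC (-0.72 ± 0.07, adjusted p = 8.22e-07). It was at 229, 243 and 222 CPM in WT and 163, 176 and 164 in KO in CD4- cDC (-0.46 ± 0.07, adjusted p = 0.000163) and at 229, 249 and 227 CPM in WT and 264, 232 and 255 in KO in CD8+ cDC, where it was not called (0.09 ± 0.07, adjusted p = 0.452). The genotypes were apart in both cDC2 populations and overlapped in CD8+ cDC. Fen1, which trims Okazaki fragments, had a value of -0.31 ± 0.14 in CD4- cDC (adjusted p = 0.11). Uhrf1, which carries DNA methylation onto new DNA, was at 67.9, 74.8 and 82.6 CPM in WT and 42.5, 25.7 and 31.03 in KO CD4+ cDC (-1.18 ± 0.20, adjusted p = 0.00021). In CD4- cDC it fell from 43.9, 63.9 and 60.4 to 45.2, 28.1 and 32.3 CPM (-0.66 ± 0.20, adjusted p = 0.0224), although the first KO library lay above the first WT library. Uhrf1 was at 52.6, 62.6 and 55 CPM in WT and 65.9, 55.2 and 81.7 in KO in CD8+ cDC (0.25 ± 0.20, adjusted p = 0.454). Chaf1a, of the histone chaperone CAF-1, fell in CD4+ (-0.89 ± 0.15, adjusted p = 0.000231) and missed the threshold in CD4- cDC (-0.42 ± 0.15, adjusted p = 0.0554).

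The cyclin E and E2F genes, which act at the entry to S phase, had the smallest median change of the S-phase roles in CD4+ cDC, -0.57. Ccne1 was at 5.62, 7.101 and 7.07 CPM in WT and 5.47, 3.36 and 2.79 in KO CD4+ cDC (-0.76 ± 0.23, adjusted p = 0.0173). Ccne2 was at 6.59, 6.696 and 10.9 CPM in WT and 3.48, 2.505 and 2.94 in KO (-1.43 ± 0.23, adjusted p = 0.000127). Both genes are near the bottom of the measured range of the set, and all 3 KO libraries lay below the WT libraries for each. In CD4- cDC, Ccne1 was at 4.71, 3.88 and 5.76 CPM in WT and 3.56, 3.22 and 3.602 in KO with no call (-0.47 ± 0.24, adjusted p = 0.173), and Ccne2 fell from 5.74, 6.65 and 6.54 to 4.63, 3.38 and 3.75 (-0.68 ± 0.23, adjusted p = 0.04). In CD8+ cDC neither was called: Ccne1 was at 5.92, 5.01 and 3.85 CPM in WT and 5.28, 6.13 and 7.08 in KO and Ccne2 at 5.86, 8.302 and 8.39 CPM in WT and 10.6, 6.97 and 10.1 in KO.

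E2f1 and E2f2 encode activating E2F factors and had the smallest changes of the S-phase members in CD4+ cDC. E2f1 was at 32.3, 35.6 and 35.7 CPM in WT and 26.4, 30.2 and 23 in KO CD4+ cDC (-0.38 ± 0.09, adjusted p = 0.00403). It was not called in CD4- cDC, at 25.01, 27.3 and 26.7 CPM in WT and 23.8, 24.5 and 24.4 in KO (-0.12 ± 0.09, adjusted p = 0.392), or in CD8+ cDC, at 31.2, 29.8 and 28.6 CPM in WT and 34.5, 29.9 and 30.9 in KO (0.09 ± 0.09, adjusted p = 0.601). E2f2 differed more between populations than between genotypes. It was at 84.7, 97.4 and 94.5 CPM in WT and 87.3, 78.6 and 68.6 in KO CD4+ cDC, the S-phase member that missed the threshold there (-0.24 ± 0.14, adjusted p = 0.205). It was at 50.8, 66.5 and 53.1 CPM in WT and 61.3, 48.7 and 46.4 in KO in CD4- cDC (-0.12 ± 0.14, adjusted p = 0.592). In CD8+ cDC it rose from 11.4, 14.5 and 10.5 to 20.5, 17.5 and 23.2 CPM (0.75 ± 0.16, adjusted p = 0.0035), with the genotypes apart.

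**Figure D2:**
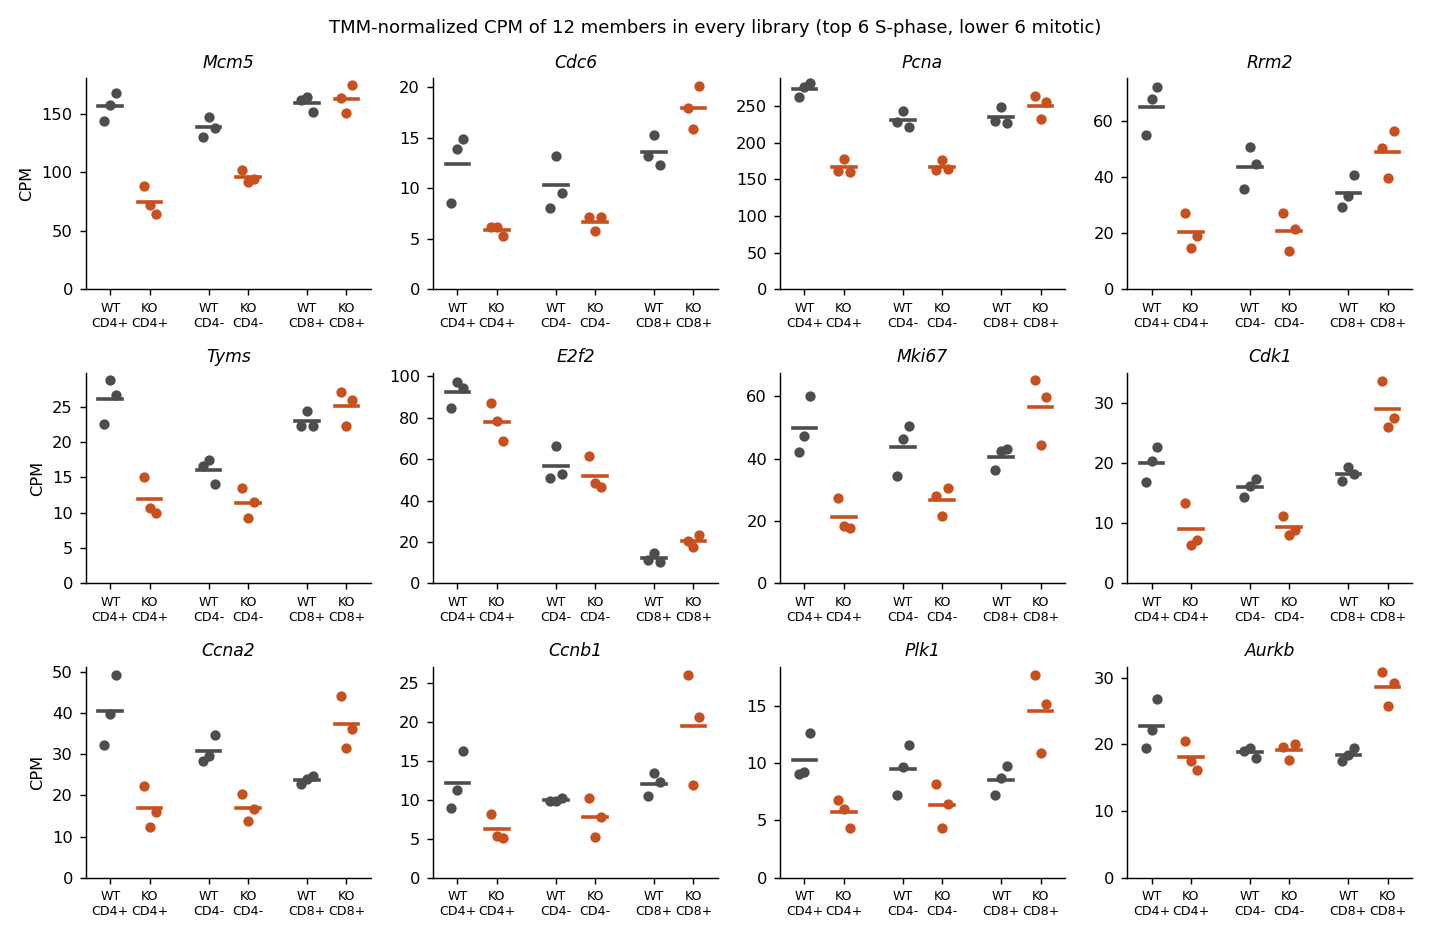
CPM of 12 members, 6 S-phase genes (Mcm5, Cdc6, Pcna, Rrm2, Tyms, E2f2) and 6 mitotic genes (Mki67, Cdk1, Ccna2, Ccnb1, Plk1, Aurkb), in each library (dots) with the mean of each group of 3 (line). E2f2 stands at 10.54 to 23.2 CPM in CD8+ cDC and at 46.4 to 97.4 in the other groups, and Rrm2 in KO CD4+ cDC, at 14.7 to 27.2, lies below its WT libraries.

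Cdk1 and its cyclins drive entry into mitosis, and all 4 fell in KO CD4+ cDC. Cdk1 was at 16.9, 20.3 and 22.7 CPM in WT and 13.3, 6.38 and 7.24 in KO (-1.14 ± 0.22, adjusted p = 0.000519). Ccna2, the cyclin of S and G2 phase, was at 32.3, 39.7 and 49.3 CPM in WT and 22.3, 12.3 and 15.8 in KO (-1.26 ± 0.20, adjusted p = 0.000106). For both, the first KO library was the highest of the KO libraries and still lay below the WT libraries. Ccnb1 was at 8.94, 11.3 and 16.3 CPM in WT and 8.18, 5.41 and 5.16 in KO (-0.95 ± 0.29, adjusted p = 0.017), and Ccnb2 at 17.8, 21.9 and 22.8 CPM in WT and 13.1, 8.82 and 7.17 in KO (-1.10 ± 0.26, adjusted p = 0.00319). These are the B-type cyclins that bind Cdk1 in mitosis.

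In CD4- cDC, Cdk1 fell from 14.4, 16.2 and 17.4 to 11.3, 8.06 and 8.89 CPM (-0.76 ± 0.22, adjusted p = 0.0164) and Ccna2 from 28.3, 29.5 and 34.7 to 20.2, 13.8 and 16.7 (-0.86 ± 0.20, adjusted p = 0.00453). The B-type cyclins missed the threshold there: Ccnb1 was at 9.85, 9.87 and 10.2 CPM in WT and 10.3, 5.29 and 7.82 in KO (-0.34 ± 0.29, adjusted p = 0.432). Ccnb2 was at 16.6, 18.9 and 21.6 CPM in WT and 16.2, 8.06 and 12.1 in KO (-0.64 ± 0.26, adjusted p = 0.0803). In CD8+ cDC the order was the other one, with Cdk1 up from 16.9, 19.4 and 18.2 to 33.6, 26.01 and 27.5 CPM (0.68 ± 0.21, adjusted p = 0.037) and Ccna2 from 22.7, 23.9 and 24.6 to 44.01, 31.5 and 36.1 (0.65 ± 0.20, adjusted p = 0.0351). Every KO CD8+ library lay above every WT one for both genes. Ccnb1 was at 10.5, 13.5 and 12.3 CPM in WT and 26.1, 11.9 and 20.7 in KO in CD8+ cDC and was not called (0.69 ± 0.28, adjusted p = 0.109). Nor was Ccnb2, at 27.6, 24.4 and 23.04 CPM in WT and 46.5, 24.8 and 31.1 in KO (0.45 ± 0.25, adjusted p = 0.264).

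The mitotic kinases were less uniform. Plk1, which acts on centrosomes, kinetochores and cytokinesis, was at 9.06, 9.23 and 12.6 CPM in WT and 6.74, 6.04 and 4.37 in KO CD4+ cDC (-0.84 ± 0.25, adjusted p = 0.0141). Aurkb, the kinase of the chromosomal passenger complex, was at 19.5, 22.2 and 26.8 CPM in WT and 20.4, 17.6 and 16.2 in KO, the smallest called change of the mitotic set, with overlap between the genotypes (-0.33 ± 0.12, adjusted p = 0.0381). Bub1b, a spindle checkpoint gene, was the mitotic member that missed the threshold (-0.43 ± 0.21, adjusted p = 0.13), while its partner Bub1 fell the most of the mitotic set (-1.27 ± 0.20, adjusted p = 9.59e-05). In CD4- cDC Plk1 was at 7.19, 9.65 and 11.6 CPM in WT and 8.19, 4.37 and 6.44 in KO (-0.57 ± 0.25, adjusted p = 0.108). Aurkb was at 19.03, 19.5 and 17.99 CPM in WT and 19.7, 17.6 and 20 in KO there (0.02 ± 0.12, adjusted p = 0.925), and Bub1b also missed the threshold (-0.05 ± 0.21, adjusted p = 0.897). In these 3 genes the CD4- genotypes overlapped, whereas Bub1, again with the largest fall of the set, was lower (-0.91 ± 0.20, adjusted p = 0.00324). In CD8+ cDC, Plk1 rose from 7.23, 8.73 and 9.75 to 17.7, 10.9 and 15.1 CPM, the largest rise of the set (0.77 ± 0.24, adjusted p = 0.0404). Aurkb rose from 17.5, 18.5 and 19.4 to 30.9, 25.7 and 29.2 CPM (0.63 ± 0.12, adjusted p = 0.00136), as did Aurka, the spindle pole kinase (0.55 ± 0.18, adjusted p = 0.0414). For these kinases all KO CD8+ libraries were above all WT ones.

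The proliferation marker Mki67, which coats mitotic chromosomes, was at 42, 47.4 and 60.05 CPM in WT and 27.5, 18.4 and 17.8 in KO CD4+ cDC (-1.23 ± 0.20, adjusted p = 0.00014). It fell from 34.3, 46.4 and 50.3 to 28.1, 21.5 and 30.4 CPM in CD4- cDC (-0.71 ± 0.20, adjusted p = 0.0147). In CD8+ cDC it was at 36.3, 42.3 and 42.9 in WT and 65.1, 44.3 and 59.8 in KO, with no call (0.48 ± 0.20, adjusted p = 0.117), although the 3 KO libraries were the 3 highest. Top2a, the topoisomerase that untangles sister chromatids, was at 72.6, 82.6 and 106 CPM in WT and 59.98, 34.7 and 43.8 in KO in CD4+ cDC (-0.91 ± 0.20, adjusted p = 0.0017). In CD4- cDC Top2a was at 64.9, 91.2 and 88.5 CPM in WT and 50.0, 36.5 and 44.9 in KO (-0.89 ± 0.20, adjusted p = 0.00323), a fall of nearly the same size. It was at 56.8, 63.4 and 71.2 CPM in WT and 96.4, 76.97 and 109 in KO in CD8+ cDC (0.56 ± 0.20, adjusted p = 0.0657).

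Birc5, the passenger protein survivin, was at 18.2, 21.4 and 26.2 CPM in WT and 13.3, 8.99 and 7.09 in KO CD4+ cDC (-1.15 ± 0.27, adjusted p = 0.00276), and fell from 14.7, 17.8 and 18.2 to 12.99, 5.99 and 8.51 in CD4- cDC (-0.87 ± 0.27, adjusted p = 0.026). It was at 19.4, 17.7 and 18.5 CPM in WT and 32.9, 18.3 and 21.2 in KO in CD8+ cDC (0.38 ± 0.26, adjusted p = 0.38). Cdc20, which activates the anaphase-promoting complex, was at 12.9, 14.3 and 15.5 CPM in WT and 9.34, 8.94 and 7.02 in KO in CD4+ cDC (-0.75 ± 0.23, adjusted p = 0.0193). The KO libraries were below the WT libraries for both genes in both cDC2 populations. Cdc20 was at 11.5, 14.7 and 16.4 CPM in WT and 10.8, 8.52 and 8.35 in KO in CD4- cDC, which missed the threshold (-0.62 ± 0.24, adjusted p = 0.0647). In CD8+ cDC it was at 17.2, 22.6 and 22.4 CPM in WT and 41.4, 20.99 and 21.2 in KO, and the KO value rested on the first library (0.43 ± 0.22, adjusted p = 0.234). Kif11 and Tpx2, which build the spindle, fell in both cDC2 populations, and Kif11 rose in CD8+ cDC (0.72 ± 0.20, adjusted p = 0.0213).

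**Figure D3:**
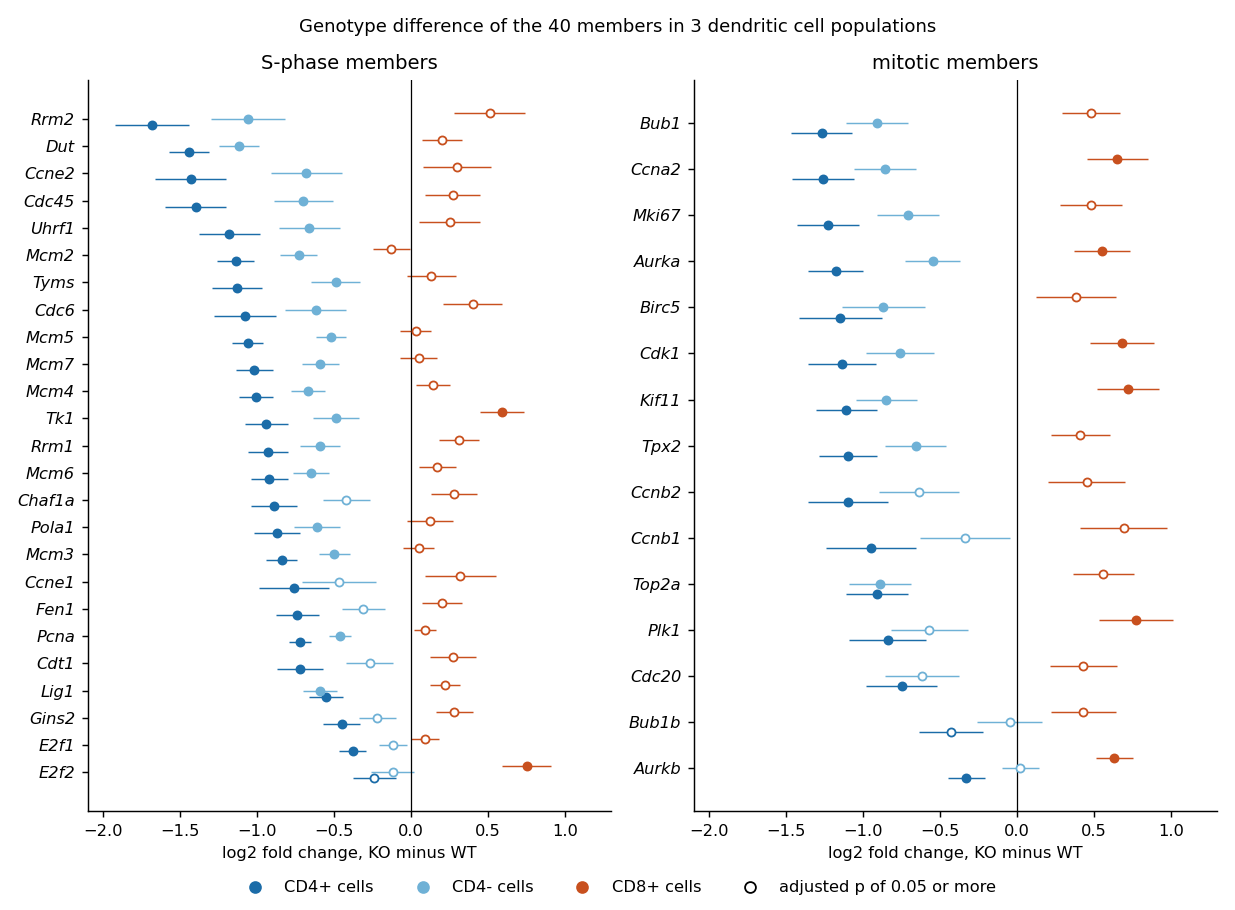
Log2 difference between KO and WT (point) with its standard error (bar) for each of the 40 members in CD4+, CD4- and CD8+ cDC, with S-phase and mitotic members apart. Filled points have an adjusted p under 0.05 (38 of 40, 27 of 40 and 8 of 40) and open points do not, and the cDC2 points lie left of those of CD8+ cDC.

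Within a group the members moved together from library to library. In WT CD4+ cDC the third library was the highest for 15 of 15 mitotic and 19 of 25 S-phase members and the first was the lowest for 15 and 23. In KO CD4+ cDC the first library was the highest for 15 mitotic and 20 S-phase members. In KO CD8+ cDC the second library was the lowest for 15 mitotic and 19 S-phase members, and in KO CD4- cDC the second was the lowest for 14 and 13. A single library thus moves many members at once, and the member counts are not independent of each other. Without the second KO CD4- library 16 members were called in CD4- cDC instead of 27. The 8 calls in CD8+ cDC became 11 without the second KO library, and 3 without the first KO, 4 without the third KO, 2 without the first WT, 3 without the second WT and 5 without the third WT library.

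The genotype difference depended on the population. The difference between KO and WT was lower in CD4+ than in CD8+ cDC for all 40 members (25 S-phase and 15 mitotic), where 9.54% of all genes were called lower in this test of the difference itself. Rrm2 led with -2.18 ± 0.33 on the log2 scale (adjusted p = 0.000153), followed by Ccna2 (-1.91 ± 0.28), Kif11 (-1.83 ± 0.28) and Cdk1 (-1.82 ± 0.30), and E2f1 was the smallest (-0.47 ± 0.13, adjusted p = 0.0162). The medians were -1.08 for the S-phase and -1.61 for the mitotic members. Between CD4- and CD8+ cDC 30 members were lower (18 S-phase and 12 mitotic, with 4.92% of all genes called lower), led by Rrm2 (-1.57 ± 0.33), Kif11 (-1.57 ± 0.29), Ccna2 (-1.51 ± 0.28) and Top2a (-1.46 ± 0.28). These comparisons use the same CD8+ libraries. Without the second KO CD4- library, 19 of these members were called.

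Between the cDC2 populations, 1 member passed the test of the difference, Mcm5 (-0.54 ± 0.14, adjusted p = 0.0475), and 1.28% of all genes were called lower. The medians were -0.41 for S-phase and -0.38 for mitotic members, and the highest value was Lig1 (0.04 ± 0.15). At an unadjusted p under 0.05, 12 S-phase members and 1 mitotic member were lower in edgeR's test. The Mcm5 call was lost with another library scaling, with 10 members at an unadjusted p under 0.05 there.

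In WT mice the populations were compared in the same way. Tyms (0.70), E2f2 (0.70), E2f1 (0.39) and Pcna (0.24, all log2) were higher in WT CD4+ than in WT CD4- cDC, 4 of 40 members, and 7.12% of all genes were called higher. Against WT CD8+ cDC, 11 members were higher in WT CD4+ cDC, with 22.6% of all genes called higher. The shares of the S-phase (28%) and mitotic members (26.7%) were near that of all genes. E2f2 had the largest difference, 7.58-fold (2.92 ± 0.16, adjusted p = 2.15e-10), and the others were Rrm2, Ccna2, Aurka, Kif11, Pola1, Tk1, Rrm1, Mcm4, Aurkb and Pcna. Between WT CD4- and WT CD8+ cDC, E2f2 (2.22) and Kif11 (0.53) were higher and Tyms, Fen1 and Gins2 were lower (21.9% of all genes were called higher and 21% lower). No mitotic member was called lower in either of the WT comparisons with CD8+ cDC by edgeR or DESeq2, and 1 in each had an unadjusted p under 0.05 in that direction. These WT counts depended on the model. With the replicate number as a block within genotype, an alternative chosen after seeing the data, 11 members were higher in CD4+ than in CD4- cDC, with 1355 of all genes higher and 1495 lower. Against CD8+ cDC that block gave 15 members higher and 2 lower in CD4+ cDC (3279 and 3327 of all genes) and 6 higher and 9 lower in CD4- cDC (3155 and 3123).

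In KO mice nearly every member was lower in the cDC2 populations than in CD8+ cDC. In KO CD4+ against KO CD8+ cDC, 38 members were lower, where 25.1% of all genes were called lower. Cdc45 had the largest difference among the S-phase members (-1.94) and Ccnb2 among the mitotic members (-1.81). In KO CD4- against KO CD8+ cDC, 39 members were lower (22.3% of all genes), with Cdk1 at -1.62. E2f2 went the other way in both, higher by 1.94 in CD4+ and 1.36 in CD4- than in CD8+ cDC, and Pola1 was not called in the first. KO CD4+ and KO CD4- cDC differed in E2f2 (0.58, higher in CD4+) and Mcm5 (-0.36), while 3.16% of all genes were called higher and 4.79% lower between these groups. Of the S-phase members 4% were higher and 4% lower, near these shares.

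On the TPM scale, on which genes can be compared, Pcna was the most abundant member in WT CD4+ cDC at a mean of 155 TPM. It was followed by Mcm2 at 66.8, Mcm6 at 47.2 and Mcm7 at 43.3, and Ccne1 (1.95), Plk1 (2.00) and Cdc6 (2.15) were the lowest. The annotation bears on these levels. Retained-intron transcripts took 55.9% of the Mcm6 and 50.4% of the Cdk1 TPM, and a transcript annotated for nonsense-mediated decay 72.7% of the Mcm2 TPM. For Gins2, Tyms, Ccna2, Bub1b and Tpx2 the most abundant transcript was also not annotated as protein coding.

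The lists of other cell cycle genes, which hold no members, gave the following counts. Of 38 other replication and repair genes 31 fell in KO CD4+ cDC, among them Ticrr (-1.41) and Prim1 (-1.23), which act at origins and in primer synthesis, and Timeless (-1.35), of fork protection. In CD4- cDC 23 of the 38 fell, among them Gins1 (-0.90) and Clspn (-0.88). In CD8+ cDC 3 rose (Mcm10 0.58, Asf1b 0.58, Slbp 0.25), a share of 7.89% that is near the 7.01% of all genes, and none fell, with 1 lower at an unadjusted p under 0.05 in edgeR's test. Of 48 other mitotic genes 34 fell and 1 rose in CD4+ cDC, and 28 fell and 1 rose in CD4- cDC. The gene that rose in both was Espl1, the protease separase (0.62 and 0.70). Kif23 (-1.47), Ncapg (-1.39), Spc24 (-1.38) and Cdca5 (-1.25) fell the most in CD4+ cDC, and Ncapg (-0.99), Sgo1 (-0.99), Spc25 (-0.98) and Ndc80 (-0.96) in CD4- cDC. These encode a midzone kinesin, a condensin subunit, kinetochore proteins and protectors of cohesion. In CD8+ cDC 12 of the 48 rose, led by Kif2c (0.96), Nusap1 (0.79), Prc1 (0.74) and Kif22 (0.72). None fell, also at an unadjusted p under 0.05. The medians of these lists were -0.76 and -0.88 in CD4+, -0.49 and -0.64 in CD4-, and 0.15 and 0.47 in CD8+ cDC.

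**Figure D4:**
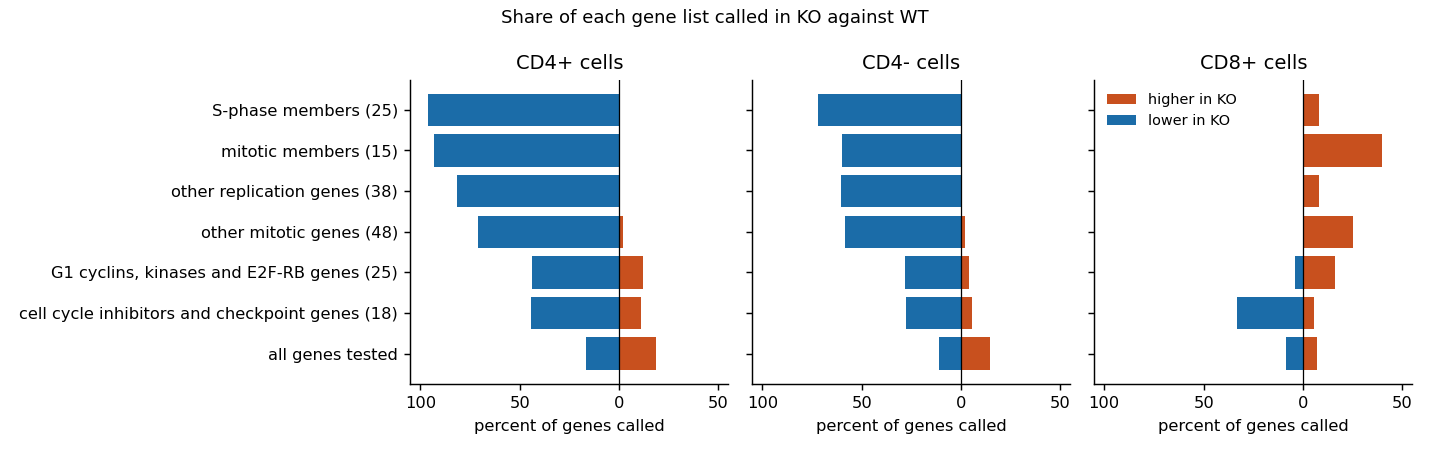
Percent of the genes of each list called lower (bars to the left) and higher (bars to the right) in KO against WT, for CD4+, CD4- and CD8+ cDC, beside the percent over all 13381 genes tested. The 4 replication and mitotic lists reach far to the left in CD4+ cDC, where 16.6% of all genes were called lower, and the mitotic lists lie to the right in CD8+ cDC.

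Some of the genes of G1 phase and of the E2F and RB families also fell in cDC2. Of 25 genes for G1 cyclins, their kinases and the E2F and RB families, 11 fell and 3 rose in CD4+ cDC, 7 fell and 1 rose in CD4- cDC, and 1 fell and 4 rose in CD8+ cDC, with medians of -0.16, -0.12 and -0.01. The shares that fell were 44% and 28% in CD4+ and CD4- cDC, against 16.6% and 11.3% of all genes, and the shares that rose, 12% and 4%, were below the 18.5% and 14.6% of all genes. In CD8+ cDC 16% rose and 4% fell, against 7.01% and 8.68%. The D-type cyclins start the cycle in answer to outside signals, and Ccnd2 and Ccnd1 had the largest falls of the list in both cDC2 populations. Ccnd1 was at 1485, 1713 and 1363 CPM in WT and 491, 454 and 447 in KO CD4+ cDC (-1.71 ± 0.11, adjusted p = 7.57e-09). It went from 782, 1033 and 852 to 448, 451 and 428 CPM in CD4- cDC (-1.01 ± 0.11, adjusted p = 6.71e-06) and was at 339, 396 and 382 CPM in WT and 306, 360.2 and 384 in KO in CD8+ cDC with no call (-0.09 ± 0.11, adjusted p = 0.67). The KO cDC2 libraries, at 428 to 491 CPM, thus stood above all CD8+ libraries, but closer to them than the WT cDC2 libraries did. Ccnd2 was at 78.8, 110.2 and 69.1 CPM in WT and 31.9, 15.1 and 15.3 in KO in CD4+ cDC (-2.05 ± 0.37, adjusted p = 0.000392) and also fell in CD4- cDC (-1.35 ± 0.37, adjusted p = 0.0118; 0.062 without the second and 0.0538 without the third KO library). Ccnd3 was not called in any population (adjusted p = 0.704, 0.576 and 0.562, at -0.06, -0.09 and -0.11). The fall of Ccnd1 was larger in CD4+ than in CD4- cDC (-0.70 ± 0.16, adjusted p = 0.0165) by the test of the difference. That call was lost without the second WT CD4+ library (adjusted p = 0.0566) or without the first (0.0586) or the third WT CD4- library (0.054), and in the fits on TPM or with a length offset (up to 0.187).

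Others on this list also fell in CD4+ cDC, among them the repressor E2f7 (-1.20 ± 0.28, adjusted p = 0.00252), its relative E2f8 (-0.53 ± 0.16, adjusted p = 0.016) and Mycl (-0.88). In CD4- cDC E2f7 (-0.62 ± 0.27) and E2f8 (0.15 ± 0.16) were not called, while Cdk2 (-0.54) and Rbl2 (-0.45) fell. The growth regulator Myc rose in all 3 populations (0.76, 0.44 and 0.94), against the direction of the replication genes in cDC2. Tfdp2 (0.71 in CD4+, 0.57 in CD8+) and E2f5 (0.49 and 0.60) rose in CD4+ and CD8+ cDC, E2f8 rose in CD8+ cDC (0.57 ± 0.16, adjusted p = 0.0193), and Cdc25a fell there (-0.33). The E2f8 calls were lost without any of 4 of the 6 CD4+ libraries (adjusted p up to 0.0846) and any of 3 of the 6 CD8+ libraries (up to 0.1). Foxm1, the factor of the mitotic genes, was at 8.58, 9.84 and 11.2 CPM in WT and 5.97, 5.35 and 5.59 in KO CD4+ cDC (-0.81 ± 0.19, adjusted p = 0.00336), fell in CD4- cDC (-0.55 ± 0.19, adjusted p = 0.0452) and rose in CD8+ cDC (0.56 ± 0.18, adjusted p = 0.047). Mybl2, which encodes B-MYB, fell in CD4+ (-0.83 ± 0.24, adjusted p = 0.012) and CD4- cDC (-0.70 ± 0.25, adjusted p = 0.0487) and was not called in CD8+ cDC (0.27 ± 0.23, adjusted p = 0.495). The Foxm1 call in CD8+ cDC was kept without the second KO library and lost without any of the other 5 (adjusted p from 0.0579 to 0.219), and also with another library scaling, no filter, TPM, a length offset, the population fitted alone or coding transcripts alone (up to 0.358). In CD4- cDC the calls of Foxm1 and Mybl2 were each lost without any of 4 of the 6 libraries (adjusted p up to 0.195 and 0.206). In CD4+ cDC that of Mybl2 was lost without the third KO library (adjusted p = 0.0591), and that of Foxm1 was kept with each library left out. With TPM or a length offset both CD4+ calls were lost (adjusted p up to 0.202 for Foxm1 and 0.578 for Mybl2).

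Of 18 genes for CDK inhibitors and checkpoints, 8 fell and 2 rose in CD4+ cDC, 5 fell and 1 rose in CD4- cDC, and 6 fell and 1 rose in CD8+ cDC. The shares that fell were 44.4% and 27.8% in CD4+ and CD4- cDC, against 16.6% and 11.3% of all genes. The risers were 11.1% and 5.56% there, below the 18.5% and 14.6% of all genes. In CD8+ cDC 33.3% fell against 8.68%, and 5.56% rose against 7.01%. Cdkn1a, which encodes the CDK inhibitor p21, was at 77.5, 68.6 and 53.9 CPM in WT and 104, 146 and 126 in KO CD4+ cDC (0.91 ± 0.18, adjusted p = 0.000868). It rose from 81.8, 70.8 and 54.9 to 100.5, 106 and 131 CPM in CD4- cDC (0.70 ± 0.18, adjusted p = 0.00871) and fell from 50.8, 41.8 and 38.7 to 26.4, 17.3 and 20.4 in CD8+ cDC (-1.03 ± 0.19, adjusted p = 0.00132). Its libraries were apart in all 3 populations, each time against the direction of the mitotic members. The other inhibitors did not share this pattern. Cdkn1b (p27) fell in CD4+ (-0.73 ± 0.11, adjusted p = 3.95e-05), CD4- (-0.39 ± 0.11, adjusted p = 0.0115) and CD8+ cDC (-0.48 ± 0.11, adjusted p = 0.00497). Cdkn2c (p18) fell in CD4+ (-0.79 ± 0.13, adjusted p = 0.000102) and CD4- cDC (-0.67 ± 0.13, adjusted p = 0.000879) and rose in CD8+ cDC (0.48 ± 0.13, adjusted p = 0.0176), with the mitotic members. The rise of Cdkn2c was lost without the first or second WT or the first or second KO CD8+ library (adjusted p from 0.0503 to 0.103). Without the third WT CD4- library the rise of Cdkn1a in CD4- cDC was lost (adjusted p = 0.0662), and without the third KO CD4- library the fall of Cdkn1b there (0.0503). Cdkn2d was not called in any population (0.00 ± 0.13, 0.16 ± 0.13 and -0.24 ± 0.14). Cdkn2a (-2.0 and -1.63), Chek1 (-1.58 and -0.89) and Wee1 (-0.83 and -0.61) fell in CD4+ and CD4- cDC, and Ccng2 rose in CD4+ cDC (0.50). In CD8+ cDC Cdkn2b (-1.97) and Gadd45b (-1.26) fell, as did Cdkn2a, whose KO CD8+ libraries were at 0, 0.0697 and 0 CPM against 0.689, 0.143 and 0.529 in WT.

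**Figure D5:**
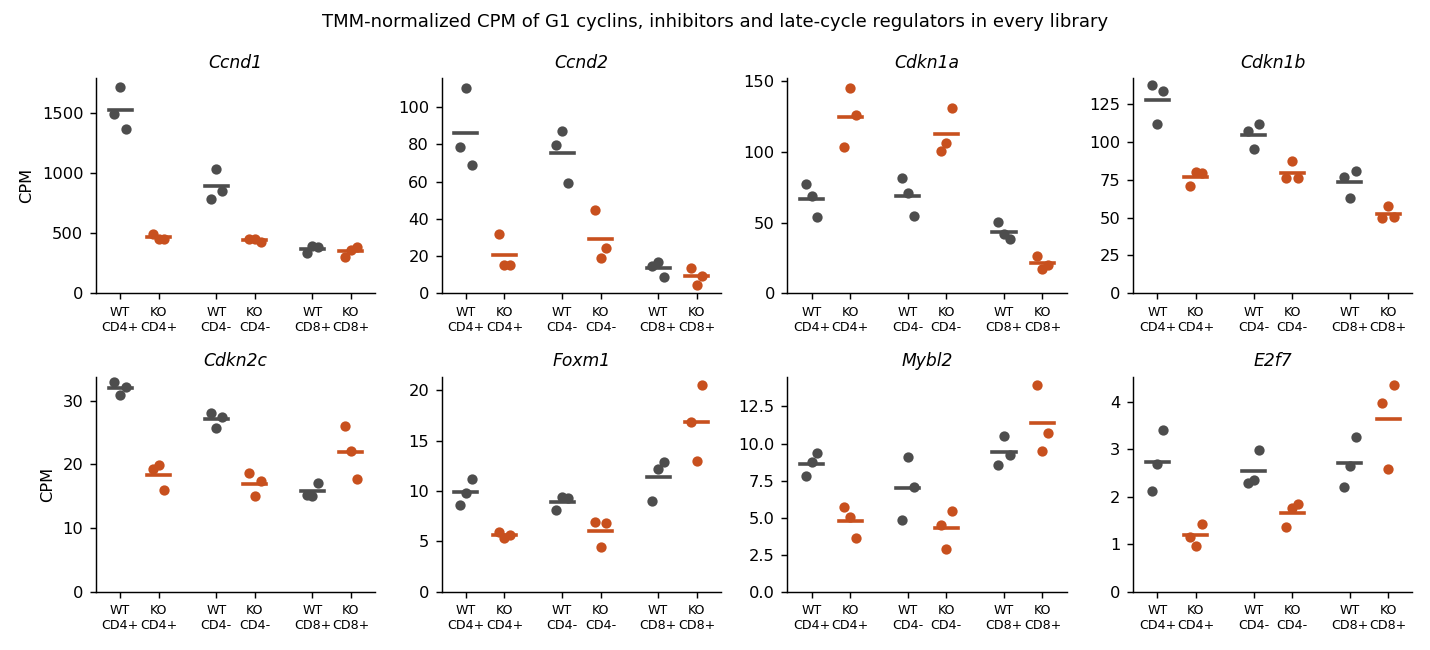
CPM of 8 regulators (Ccnd1, Ccnd2, Cdkn1a, Cdkn1b, Cdkn2c, Foxm1, Mybl2, E2f7) in each library (dots) with the mean of each group of 3 (line). Ccnd1 in KO CD4+ cDC, at 447 to 491, lies far below its WT libraries at 1363 to 1713, and Cdkn1a lies above WT in KO cDC2 and below WT in KO CD8+ cDC.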

How the data were processed

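Poly(A) RNA of 18 libraries was sequenced and quantified per transcript. Per the submitters' processing notes, the tools were Salmon 0.14.1 and, for read quality, FastQC 0.11.8, with build GRCm38. The authors deposited Salmon's estimated counts (117135 transcripts) and TPM (84086 transcripts). The annotation release and the settings are not given in the sources used here.

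Transcript counts were summed per gene and rounded, with gene names from the TPM table and otherwise from GENCODE M21. At most 0.16% of a library's counts had no gene. Genes were filtered with filterByExpr (minimum count 10, minimum total 15) and scaled by TMM (factors 0.9221 to 1.146). They were tested two-sided with edgeR 4.0.16 (R 4.3.3) as 6 group means with 12 residual degrees of freedom, adjusted over 13381 genes. Printed CPM use the TMM-scaled library sizes. The fit was tested on simulated data. DESeq2 1.42.0, RLE scaling, no filter, limma 3.58.1 on log2(TPM + 1) as deposited or TMM-scaled, a length offset, each population alone, a replicate block and leaving out each library were alternatives. A block within genotype and protein-coding transcripts only were chosen after seeing the data.

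The members and lists were chosen with earlier results of these data known. Library values are given for members that stand for steps of the cycle. Other genes are named for missing or opposing the call of their set, for the largest or smallest change, or as regulators fixed by name, with up to 4 per list and direction. A few genes that this rule names are not reported here.

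Same-numbered WT and KO libraries did not deviate together in every pair (correlations from -0.047 to 0.15), so the numbers were not taken to pair the genotypes. Within KO, same-numbered CD4+ and CD8+ libraries correlated at 0.148 to 0.181 and CD4- and CD8+ libraries at 0.221 to 0.262. These correlations hint at pairing, but the reported tests used none. With the block within genotype, neither KO count of members against CD8+ cDC changed by over 1.5 times. Within WT, same-numbered libraries also correlated, at 0.087 to 0.201 (CD4+ and CD4-), 0.054 to 0.149 (CD4+ and CD8+) and 0.08 to 0.174 (CD4- and CD8+). The WT counts of members rose with that block, as given below. No 2 libraries of a group agreed within sampling noise.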

Additional observations from a re-analysis of the deposited data

Results flagged for a closer look

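The genotype difference was tested between populations, and these differences of differences passed (edgeR's quasi-likelihood test, adjusted p under 0.05). Between CD4+ and CD8+ cDC all 40 members passed, and the named members were Rrm2 (-2.18), Ccna2 (-1.91), Kif11 (-1.83) and Cdk1 (-1.82, all log2). Among the regulators Foxm1 (-1.37), Mybl2 (-1.11), Ccnd1 (-1.62), E2f7 (-1.64), E2f8 (-1.11) and Cdkn2c (-1.27) passed with the same sign, and Cdkn1a passed with the other (1.94). Those of Foxm1 and Mybl2 were lost with TPM and with a length offset, and that of Mybl2 also without library 3 of WT or KO CD4+ or library 1 of WT or KO CD8+ cDC (adjusted p up to 0.0666).

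Between CD4- and CD8+ cDC 30 members passed, with Kif11 at -1.57, Rrm2 at -1.57, Ccna2 at -1.51 and Top2a at -1.46. Of the regulators Foxm1 (-1.12), Ccnd1 (-0.92) and Cdkn2c (-1.15) were lower and Cdkn1a (1.73) was higher, with the call of Foxm1 lost with TPM and with a length offset. Between the cDC2 populations 1 member passed, Mcm5 (-0.54), and of the regulators Ccnd1 (-0.70). The Mcm5 value was called in 1 of the 12 fits that left out a library, the one without the first KO CD4+ library (adjusted p up to 0.149 in the others). That of Ccnd1 was lost without WT CD4+ library 2 or WT CD4- library 1 or 3 (up to 0.0586) and with TPM or a length offset. Groups of 3 libraries are too small for a test of single outlying libraries.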

How the results depend on the processing

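The number of members called held within 1.5 times in most settings. In CD4+ cDC 38 were called, 30 to 38 in other settings and 33 to 39 with 1 library left out. Of the 38, 33 kept their call with every library left out in turn, and Aurkb, Ccnb1, Ccne1, Cdc20 and Plk1 lost it in at least 1. In CD4- cDC 27 became 16 with TMM-scaled TPM and 16 with the length offset, and 16 to 28 with 1 library left out (lowest without KO CD4- library 2). In CD8+ cDC 8 became 0 by limma on log2(TPM + 1) (4 at an unadjusted p under 0.05), 4 with TMM-scaled TPM, 2 with the length offset, 5 with protein-coding transcripts only, and 2 to 11 with 1 library left out. Only E2f2 and Aurkb kept their CD8+ call with every library left out in turn, and no member kept it in every other setting. All 15 mitotic members were above 0 in CD8+ cDC in each of these settings, and the S-phase members were 13 above and 11 below 0 on log2(TPM + 1).

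The CD4+ against CD8+ difference kept 27 to 40 of 40 members, and 38 to 40 with 1 library left out. For CD4- against CD8+ the 30 became 15 with log2(TPM + 1), 15 with TMM-scaled TPM, 13 with the offset, and 19 to 33 with 1 library left out. For CD4+ against CD4- the 1 (Mcm5) became 0 with RLE scaling (10 at an unadjusted p under 0.05), no filter (16), log2(TPM + 1) (2), TMM-scaled TPM (7), the offset (7) and protein-coding transcripts (10), and 0 to 3 with 1 library left out. In WT, the 4 members of CD4+ against CD4- became 0 with log2(TPM + 1) (1 at an unadjusted p under 0.05), 2 with TMM-scaled TPM and 1 with the offset, and 3 to 5 with 1 library left out. The 11 against CD8+ became 8 to 12 with 1 library left out, and the 5 of CD4- against CD8+ became 2 to 5, with 2 each without WT CD4- library 3 or WT CD8+ library 2. In KO, the 2 of CD4+ against CD4- became 0 with log2(TPM + 1), TMM-scaled TPM and the offset (6 each at an unadjusted p under 0.05), and 0 to 2 with 1 library left out. The KO comparisons with CD8+ gave 36 to 39 and 38 to 40. Except where named, the cause was not tested.

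The calls of the named regulators held less well. Of their calls, 7 of 9 in CD4+, 2 of 7 in CD4- and 2 of 5 in CD8+ cDC were kept with every library left out in turn, and 5, 3 and 1 in every other setting. With TPM on either scaling and with the length offset, the calls of Ccnd2, E2f8, Foxm1 and Mybl2 in CD4+, of Ccnd2, Foxm1 and Mybl2 in CD4- and of Foxm1 and Cdkn2c in CD8+ cDC were lost.

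With the replicate number as a block the counts of members were 38, 28 and 8 in CD4+, CD4- and CD8+ cDC, 0 for CD4+ against CD4- (14 at an unadjusted p under 0.05), 40 for CD4+ and 31 for CD4- against CD8+. With the block within genotype, CD4+ against CD4- gave 3 of the genotype difference and 11 within WT. CD4+ against CD8+ gave 17 and CD4- against CD8+ 15 within WT, where 1355, 3279 and 3155 of all genes were higher and 1495, 3327 and 3123 lower. That block gives no genotype comparison, and fitting each population alone gives no comparison between populations. The numbers share no stated animal or day, and not every WT library correlated best with the KO library of its own number.

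On log2(TPM + 1) the median of all genes moved to -0.09, -0.18 and -0.12 in CD4+, CD4- and CD8+ cDC. The share of calls that were higher went from 52.8% to 33.4%, from 56.3% to 16.9% and from 44.7% to 16.2%. For the genotype difference in CD4+ minus that in CD4- cDC it went from 66.0% to 89.2%, and for CD4- minus CD8+ from 62.6% to 43.1%. Within WT it went from 42.5% to 14.8% for CD4+ minus CD4- and from 51.1% to 72.7% for CD4- minus CD8+, and within KO from 52.1% to 64.5% for CD4- minus CD8+. Relative to the moved median, 19 of 25 S-phase members were above it in CD8+ cDC.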
